A study of Chlorocebus sabaeus with 45 samples.

Results

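Cytosolic ribosomal proteins are the protein part of the ribosome that translates nuclear mRNA. They were taken as every gene symbol in the expression tables that followed the RPL and RPS naming scheme, or that was RPSA, RPLP0, RPLP1 or RPLP2, with a mean of at least 0.5 FPKM over all libraries. FPKM is the number of sequenced fragments of a gene divided by its length and by the depth of the library. The name rule matched 73 of 33994 genes, and 71 of these passed the minimum. RPL10L (mean 0.0055 FPKM, above 0 in 7 libraries) and RPL3L (0.0191 FPKM, above 0 in 19) fell below it, and the lowest genes inside it were RPL26L1 at 3.17 FPKM and RPL36A at 5.87 FPKM. All 71 were above 0 in all 45 libraries. They comprised 27 genes of the small subunit, 37 of the large subunit, the 3 genes of the P stalk (RPLP0, RPLP1 and RPLP2) and 4 paralogs of another member (RPL7L1, RPL22L1, RPL26L1 and RPS27L). Some ribosomal protein symbols, such as RPL3, RPL10, RPS3A and RPS26, were not analysed here.

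Whole blood was drawn from 15 juvenile male vervet monkeys (Chlorocebus sabaeus), wild-caught on St. Kitts with 1 animal per troop, on day 0, day 3 and day 14 of a relocation and quarantine stressor. The same 15 animals were sampled each time, so each day had 15 libraries. Day 0 was taken in the field right after trapping under ketamine and xylazine, and days 3 and 14 in single housing at the facility under dexmedetomidine and midazolam, so a change after day 0 cannot be told apart from the change of place and sedative. Day 14 against day 3 compares samples of the same housing and sedation. There was no group of animals that stayed in the field, and the last time point is day 14 in the sample labels and day 15 in the series description.

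A ribosome joins a small subunit, which reads the mRNA, to a large subunit, which forms the peptide bonds, and each cytosolic ribosomal protein is normally present in a fixed number of copies per subunit. The P stalk is a protein arm of the large subunit that recruits the translation factors. Most ribosomal protein mRNAs begin with a terminal oligopyrimidine (TOP) tract, through which mTOR signaling controls their translation as a group. In blood, a nucleated erythroid precursor needs very high ribosome output, the reticulocyte still carries ribosomes and mRNA that it loses as it matures, and inherited loss of 1 copy of several of these genes causes Diamond-Blackfan anaemia, a failure of red cell production.

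The ribosomal protein genes took between 1.09% and 3.65% of the fragments of a library. Their levels per base of gene differed widely. Among the highest were RPLP0 of the P stalk, with a mean of 1665 FPKM, RPL19 of the large subunit (998 FPKM) and RPS6 of the small subunit (939 FPKM), the substrate of the S6 kinases. The lowest were RPL26L1, RPL36A, RPL29 (11.7 FPKM), RPS10 (13.6 FPKM) and RPS27L (16.1 FPKM). Ribosomal protein genes have many near-identical processed copies in primate genomes, and reads that match several places could be lost or split, so the levels of single members are uncertain. The libraries held 13216280 to 31469337 fragments on genes, which put 18 to 113 fragments on RPL26L1 and 18120 to 79974 on RPLP0.

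By day 3 no ribosomal protein gene was called as changed against day 0. Levels were compared with limma on log2 values of FPKM divided by a TMM scaling factor (a factor that sets the typical gene of each library level), called scaled FPKM below, and p-values were adjusted by Benjamini-Hochberg over all 18753 tested genes. None of the 71 members passed an adjusted p of 0.05, and 0 had an unadjusted p under 0.05, beside 12.2% of all tested genes called. The median log2 fold change of the members was -0.01 (all tested genes 0.01), with 34 members above 0 and 37 below. The extremes were RPL22L1 (log2 fold change 0.35 ± 0.36 SE, adjusted p = 0.593) and RPS18 (-0.28 ± 0.20, adjusted p = 0.399). Single animals moved in opposite directions: in 4 of 15 animals at least 60 members were higher on day 3 than on day 0, and in 6 animals at most 11 were.

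By day 14, 38 of the 71 members rose against day 0 and none fell (limma, adjusted p under 0.05; 0 falls also at an unadjusted p under 0.05), beside 18.8% of all tested genes called up and 17.3% called down. All 71 point estimates were above 0, from 0.07 to 1.51 on the log2 scale, with a median of 0.48 (all tested genes -0.02). Rises were called for 13 of 27 small subunit genes (median 0.46), 19 of 37 large subunit genes (median 0.48), all 3 P stalk genes (median 0.47) and 3 of 4 paralogs (median 0.67), so the medians of the subunits lay close together. In 9 members the fitted change was at least 2-fold. With each animal as its own block the count was 53 (23.0% of all genes up), which moved it by less than 1.5 times, while the small subunit went from 13 to 20.

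**Figure D1:**
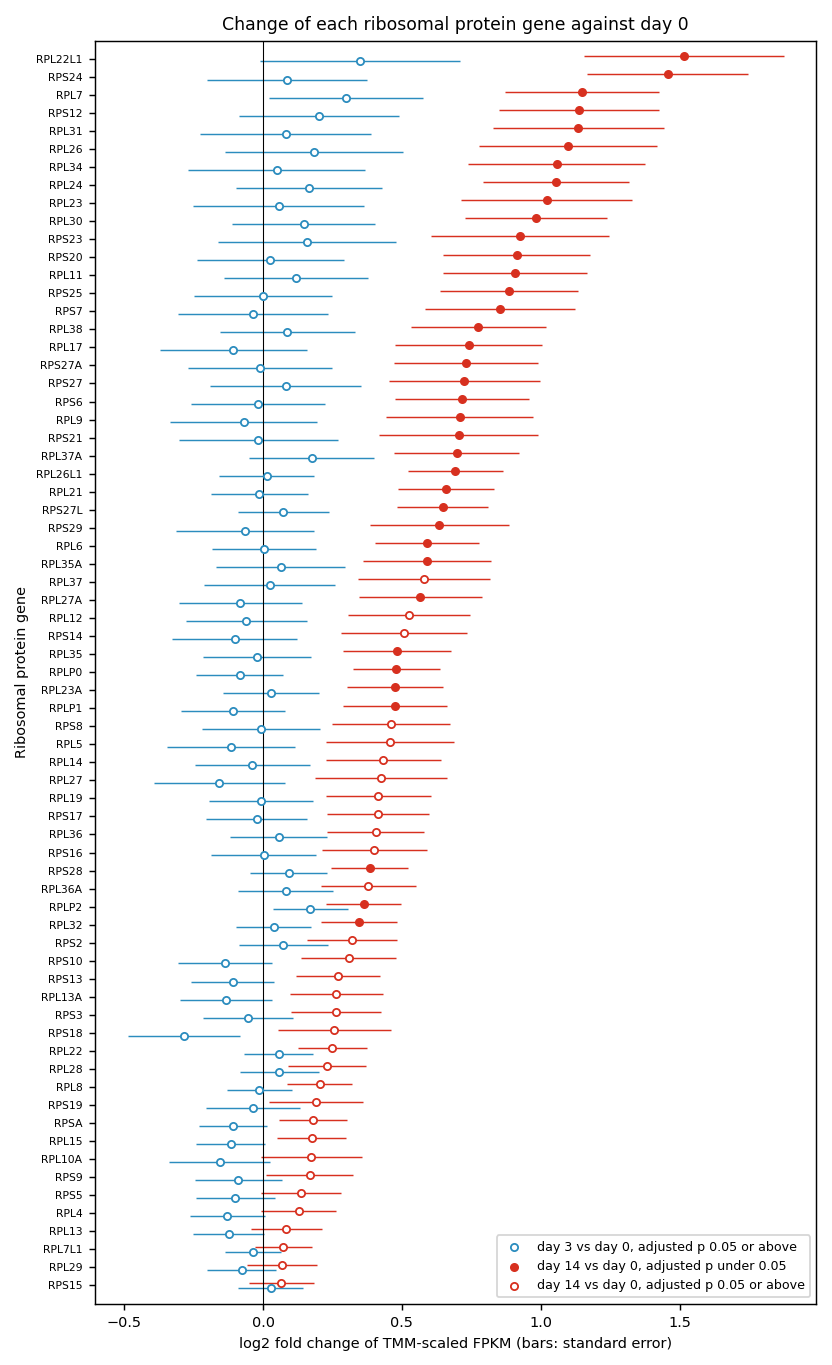
Log2 fold change of scaled FPKM on day 3 (blue) and day 14 (red) against day 0 for 69 ribosomal protein genes, ordered by the day 14 change; bars are standard errors and filled points have an adjusted p under 0.05. The day 3 points scatter around 0 and none is filled, while all day 14 points lie above 0 and run from RPL22L1 at 1.51 to RPS15 at 0.07.

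The size of this rise depended on what it was measured against. The members' share of all fragments had medians of 1.75%, 1.84% and 1.88% for the 3 days in order, and means of 2.06% ± 0.79 SD, 1.92% ± 0.64 and 2.05% ± 0.55 (n = 15 each). The medians rose from day to day and the means did not. The share was higher at the last time point than at the first in 9 of 15 animals. Over the same days the 20 most abundant genes of each library went from a median of 10.03% to 13.9% and 25.5% of its fragments. With FPKM as deposited, without further scaling, the median of all tested genes on day 14 was -0.36 and that of the members 0.05 (41 of 71 above 0), and 7 members were called up, beside 7.79% of all genes. Relative to the median gene the members' median was then 0.42, and all 71 lay above that median gene. The rise is thus stated relative to the typical gene, and the share of fragments was not tested. In whole blood, more cells of a type that is rich in ribosomal protein mRNA and more of this mRNA per cell cannot be told apart.

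RNA integrity and single animals moved the count by over 1.5 times. The RNA integrity numbers in the study's sample list were themselves higher on day 14 than on day 0 in most animals and lower in none. With RNA integrity numbers as a covariate, 11 members were called up on day 14 against day 0, beside 11.8% of all genes. The members' median was then 0.38, with 67 of 71 estimates above 0. With the animal block added to that fit the count was again 11, beside 13% of all genes. The median was 0.28, with 56 of 71 estimates above 0. The count without animal 14 was 22 and without animal 12 was 24, with members' medians of 0.39 and 0.43. In those 2 fits 3080 and 3147 of all 18753 genes were called up, in place of 3517. In all 27 fits, the main one included, 7 members were called up: RPL22L1, RPS24, RPL7, RPS12, RPL31, RPL24 and RPL30.

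The animals differed in how far their ribosomal protein genes had moved. The level of the group was summarised in each library as the median over members after each gene was set to its own mean. This value was higher on day 14 than on day 0 in 10 of 15 animals, with changes from -0.32 to 1.72 on the log2 scale and a median of 0.53. Animals 14, 12 and 8 had the largest rises (1.72, 1.42 and 0.995), and in animals 7, 12 and 14 all 71 members were higher on day 14. Animals 5, 6 and 10 began high on day 0 (0.61, 0.39 and 0.57) and changed by -0.09, -0.32 and -0.04. Animals 2 and 3 did not begin as high (-0.09 and 0.22) and changed by -0.04 and -0.02. The change contains the day 0 level, so both are linked by construction. The SD between animals was 0.51 on day 0, 0.56 on day 3 and 0.42 on day 14.

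**Figure D2:**
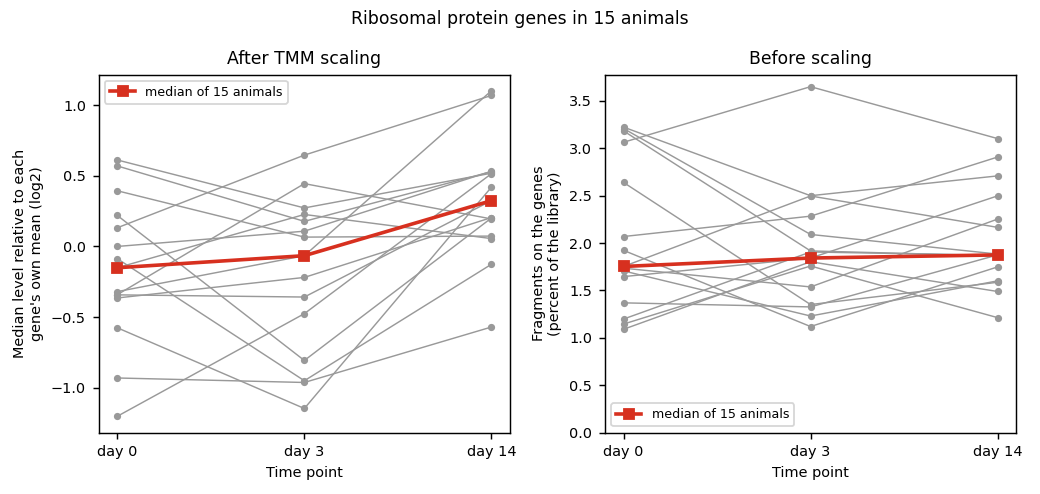
Ribosomal protein genes in each of 15 animals (grey lines) and their median (red) on days 0, 3 and 14. Left, the median over members of scaled log2 levels, each gene relative to its own mean, had medians of -0.15, -0.07 and 0.32; right, the unscaled percent of fragments on these genes had medians of 1.75, 1.84 and 1.88 and means of 2.06, 1.92 and 2.05.

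Within a day the members moved together from animal to animal. After the mean of each day was taken out, the median Pearson correlation between 2 members over the 45 libraries was 0.75, from -0.23 to 0.99, and 1 component held 73.5% of their variance. These are descriptions over libraries that share animals and scaling, and a common scaling error would enter them. Of the 71 members, 54 had a correlation of at least 0.8 with the median of the others, led by RPL27 (0.98), RPL37, RPS6 and RPS21 (each 0.97). The loosest were RPL7L1 (0.44), RPLP2 (0.50), RPL28 (0.51), RPS15 (0.59), RPS28 (0.59) and RPL29 (0.60).

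RPL22L1 had the largest rise. It encodes a paralog of RPL22, a large subunit protein known for its part in T cell development. Its scaled FPKM ran from 15.9 to 99.4 on day 0 with a median of 33.1, from 18.3 to 224 on day 3 (median 45.9) and from 33.4 to 327 on day 14 (median 95.2). The ranges overlapped, yet every one of the 15 animals was higher on day 14 than on day 0. The fold change was 2.86 (log2 1.51 ± 0.36 SE, adjusted p = 0.000948).

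RPS24, a small subunit protein and one of the Diamond-Blackfan anaemia genes, was the second. Its scaled FPKM was 41.4 to 136 on day 0 (median 70.2), 37.9 to 396 on day 3 (median 60.2) and 54.8 to 512 on day 14 (median 206). All 15 animals were higher on day 14 than on day 0, and 7 of 15 were higher on day 3. The fold change by day 14 was 2.74 (log2 1.46 ± 0.29, adjusted p = 0.000121).

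RPL7, a large subunit protein, went from a median of 136 scaled FPKM on day 0 (64.3 to 369) to 196 on day 3 (64.2 to 714) and 367 on day 14 (104 to 681). It was higher in 14 of 15 animals by day 14 (log2 1.15 ± 0.28, adjusted p = 0.00109). RPS12 of the small subunit had a median of 377 on day 0 (123 to 760), 357 on day 3 (165 to 1201) and 783 on day 14 (256 to 1432), with all 15 animals higher (log2 1.14 ± 0.29, adjusted p = 0.00179). RPL31, which sits at the exit of the nascent peptide tunnel, had a median of 75.5 on day 0 (29.6 to 187), 82.2 on day 3 (30.2 to 371) and 190 on day 14 (42.0 to 388), with 14 animals higher (log2 1.13 ± 0.31, adjusted p = 0.0034). In each of these genes the lowest day 14 library lay within the day 0 range, so the shift was one of most animals and not a separation of the days.

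Of the abundant members, RPS6 rose (log2 0.72 ± 0.24, adjusted p = 0.0172). RPL19 did not pass in the main fit (0.42 ± 0.19, adjusted p = 0.078) and passed with the animal as a block (adjusted p = 0.0211). Over the 71 members, mean FPKM and change had a Spearman rho of -0.14, a description over genes of the same libraries.

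All 3 P stalk genes rose by day 14, and none of the 3 was called with RNA integrity as a covariate or without scaling. Their median was 0.38 with RNA integrity and 0.05 without scaling, against 0.47 in the main fit. With no filter on low values, and with TMM factors from all genes, 1 of the 3 was called. RPLP0, the base of the stalk, had a median of 1530 scaled FPKM on day 0 (643 to 2436), 1502 on day 3 (874 to 2280) and 1920 on day 14 (1242 to 3388), with 12 of 15 animals higher (log2 0.48 ± 0.16, adjusted p = 0.0143). RPLP1 changed by 0.47 ± 0.19 (adjusted p = 0.0428) and RPLP2 by 0.36 ± 0.14 (adjusted p = 0.0321). RPLP1 also missed the threshold without animal 1, 7, 8, 9, 12, 13, 14 or 15 (limma, adjusted p from 0.0516 to 0.115), and RPLP2 without animal 3, 11, 12, 14 or 15 (0.0507 to 0.0749). Without scaling the direction of RPLP2 turned (-0.06), as did those of RPL32 and RPS28.

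RPSA, the laminin receptor precursor that forms part of the small subunit, did not pass. Its scaled FPKM was 134 to 351 on day 0 (median 230), 124 to 296 on day 3 (median 228) and 193 to 358 on day 14 (median 262), with a log2 fold change of 0.18 ± 0.12 (adjusted p = 0.256) and 10 of 15 animals higher. In all, 33 members did not pass on day 14 against day 0. The 3 nearest to 0 were RPS15 (0.07 ± 0.12, adjusted p = 0.693), RPL29 (0.07 ± 0.13, adjusted p = 0.702) and RPL7L1 (0.07 ± 0.10, adjusted p = 0.61). RPS15 had medians of 889, 890 and 917 scaled FPKM on days 0, 3 and 14, and its full ranges of 544 to 1210, 574 to 1148 and 556 to 1377 nearly coincided.

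**Figure D3:**
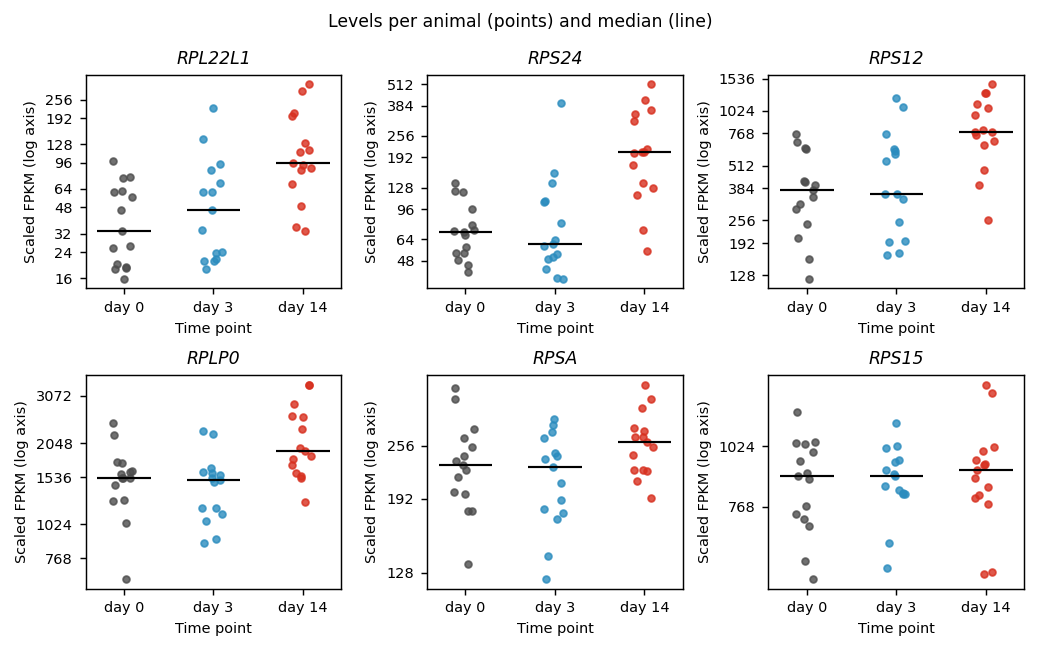
Scaled FPKM (log axis) of 6 ribosomal protein genes in 15 animals on each day, with the median as a line. RPL22L1, RPS24, RPS12 and RPLP0 shift up by day 14 with overlapping ranges, RPSA shifts less (medians 230, 228 and 262) and RPS15 stays near 890 to 917.

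Each member was then set against the common trend of the group by subtracting, in each library, the median log2 level of the members. On day 3 no member departed from that trend (limma, 0 of 71, with 1 at an unadjusted p under 0.05), beside 0.549% of all genes. Against a gene-centred trend, described next, RPS18 lay below it on day 3 (-0.24, adjusted p = 0.0335). On day 14 against day 0, 10 members lay above it and 17 below, beside 4.6% and 57.9% of all tested genes. That median rose by 0.63, more than the median member change of 0.48, so the median member lay at -0.15 against it by construction. With a trend taken after each gene was set to its own mean, an alternative added after the data were seen, 16 lay above and 16 below, of which 10 and 16 were the members called before.

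Furthest above were RPL22L1 (0.89 ± 0.27 SE, adjusted p = 0.00699), RPS24 (0.83 ± 0.21, adjusted p = 0.00159), RPL7 (0.52, adjusted p = 0.00747), RPS12 (0.51, adjusted p = 0.00772) and RPL31 (0.51, adjusted p = 0.0157). Among the furthest below were RPS15 (-0.56 ± 0.19, adjusted p = 0.013), RPL29 (-0.56, adjusted p = 0.0109), RPL7L1 (-0.55, adjusted p = 0.0199) and RPL13 (-0.54, adjusted p = 0.00546). All 9 of these genes also passed against the gene-centred trend. The members above comprised 2 small subunit genes, 7 large subunit genes and 1 paralog, and those below 7, 9 and 1. The ribosomal protein genes thus did not rise in equal measure, and both subunits held departures on either side. With RNA integrity as a covariate, 7 members lay above and 0 below, and with RNA integrity and the animal block 5 above and 6 below. Without animal 14 the count was 17 in place of 27.

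Longer genes tended to change less. The lengths behind the FPKM values ran from 378 to 2309 bases, and over the 71 members length and the day 14 change had a Spearman rho of -0.31 (a description over genes of the same libraries; -0.19 over all 18753 tested genes). Of the 24 shortest members (378 to 584 bases) 16 rose with a median log2 fold change of 0.57, of the 23 in the middle 15 rose (0.60), and of the 24 longest (768 to 2309 bases) 7 rose (0.29). RPS24 (1301 bases), RPLP0 (1203 bases) and RPS29 (1507 bases) were long and rose. Among the 7675 other tested genes in the same length range the median was 0.09, with 25.7% called up. The part of gene length in the members' change was not tested.

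**Figure D4:**
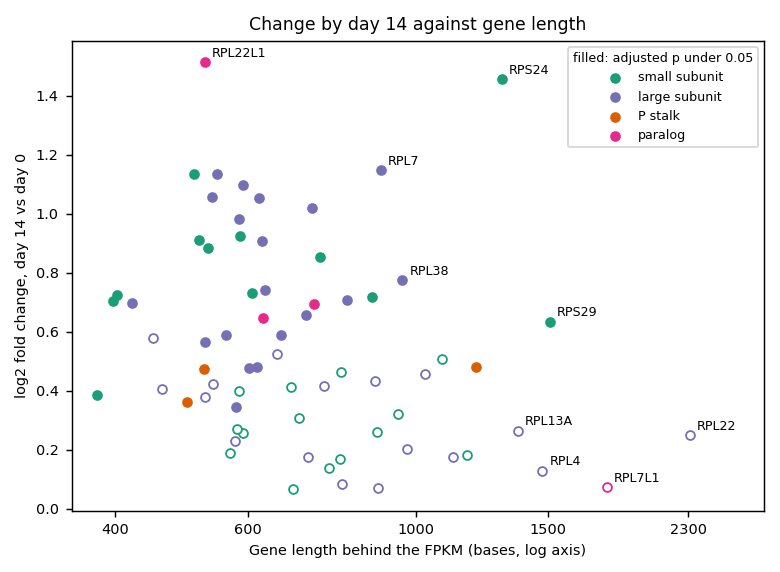
Log2 fold change on day 14 against day 0 for 69 ribosomal protein genes by the gene length used for FPKM (log axis), coloured by group and filled where the adjusted p was under 0.05. RPS24 and RPS29 are the longest genes above 0.6, and RPL4, RPL7L1, RPL13A and RPL22 lie low at the long end.

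Many ribosomal protein genes carry small nucleolar RNA (snoRNA) genes in their introns. In RefSeq's annotation of the assembly mChlSab1.0.hap1, all 71 members matched 1 protein-coding symbol and 23 spanned at least 1 snoRNA gene. Of these 23, 11 rose by day 14 (median 0.46), and of the other 48, 27 rose (median 0.49). The difference was not tested.

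Pairs of parent and paralog gave a comparison inside a library, since the scaling cancels in their ratio. Effects of gene length and of reads that match several places need not cancel, and their part was not tested. The lengths were 526 bases for RPL22L1 and 2309 for RPL22, and 1793 for RPL7L1 and 900 for RPL7. RPL36AL had 554 bases and RPL36A 526. Of 8 pairs listed 5 could be tested, with the log2 ratio fitted by limma beside all genes. RPL22L1 was above RPL22 in most libraries, and the ratio of their FPKM had a median of 1.62 on day 0 (0.614 to 4.93), 1.79 on day 3 (0.751 to 7.13) and 3.66 on day 14 (1.39 to 14.7). The ratio rose by 2.40-fold from day 0 to day 14 (log2 1.26 ± 0.34 SE, adjusted p = 0.0032) and did so in all 15 animals. RPL22 itself changed by 0.25 ± 0.12 (adjusted p = 0.114).

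RPL7L1 moved the other way against RPL7. RPL7L1 is a paralog found in precursors of the large subunit. Its ratio to RPL7 had a median of 0.128 on day 0 (0.0509 to 0.252), 0.107 on day 3 (0.0278 to 0.224) and 0.0599 on day 14 (0.0325 to 0.178), a log2 change of -1.07 ± 0.25 (adjusted p = 0.000919), lower in 14 of 15 animals. RPL7L1 itself had medians of 19.1, 17.3 and 18.6 scaled FPKM.

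RPL36AL, which the naming rule left out, codes for a protein nearly identical to RPL36A. It stood at a median of 13.4 times RPL36A on day 0 (7.58 to 20.5), 15.9 times on day 3 (7.54 to 39.4) and 28.3 times on day 14 (9.53 to 51.4), and the ratio rose by a log2 of 1.12 ± 0.20 (adjusted p = 2.99e-05) in 14 of 15 animals. RPL36AL rose by 1.496 ± 0.31 (adjusted p = 0.000233), and RPL36A had 0.38 ± 0.17 (adjusted p = 0.0788, and 0.04 with the animal as a block). The 3 ratios that passed did so in every fit made (27, 27 and 26). The other 2 ratios did not pass. RPL26L1 to RPL26 changed by -0.41 (2 SE interval -0.89 to 0.08, adjusted p = 0.197) and RPS27L to RPS27 by -0.08 (-0.43 to 0.27, adjusted p = 0.761). These 2 paralogs rose with their parents: RPL26L1 by 0.69 ± 0.17 (adjusted p = 0.00152) with RPL26 at 1.098 ± 0.32 (adjusted p = 0.00632), and RPS27L by 0.65 ± 0.16 (adjusted p = 0.00173) with RPS27 at 0.72 ± 0.27 (adjusted p = 0.0332).

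**Figure D5:**
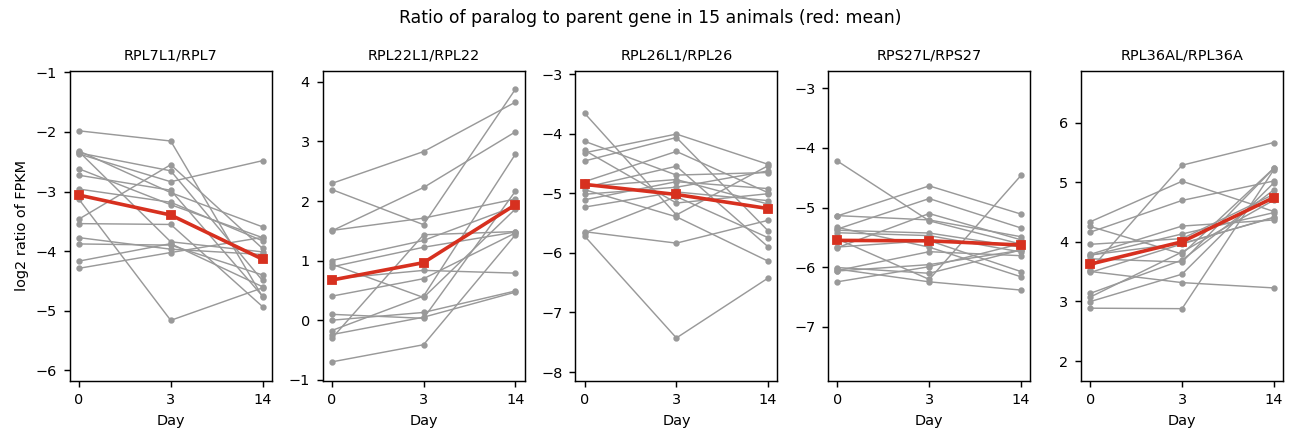
Log2 ratio of FPKM of each paralog to its parent gene in 15 animals (grey) with the mean (red) on days 0, 3 and 14; all panels span the same number of log2 units. RPL22L1/RPL22 and RPL36AL/RPL36A climb by day 14 (1.26 and 1.12), RPL7L1/RPL7 falls (-1.07), and RPL26L1/RPL26 and RPS27L/RPS27 do not pass (-0.41 and -0.08).

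Between day 3 and day 14, under the same housing and sedation, 26 of 71 members rose and none fell (limma; 0 falls also at an unadjusted p under 0.05), beside 8.38% of all tested genes called up and 5.01% called down. The median log2 fold change was 0.56 (all tested genes -0.02) and all 71 estimates were above 0. The largest rises were RPS24 (1.37 ± 0.29 SE, adjusted p = 0.00282), RPL22L1 (1.17 ± 0.36, adjusted p = 0.0282), RPL31 (1.05 ± 0.31, adjusted p = 0.0225), RPL34 (1.01 ± 0.32, adjusted p = 0.0319) and RPL23 (0.96 ± 0.31, adjusted p = 0.0335). RPS24 and RPL22L1 were higher on day 14 in all 15 animals. By subunit, 8 of 27 small subunit genes, 13 of 37 large subunit genes, 2 of 3 P stalk genes and 3 of 4 paralogs rose. With the animal as a block 18 small subunit and 27 large subunit genes were called. This comparison shares its day 14 libraries with the one against day 0.

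The count from day 3 to day 14 moved more with the fit. With each animal as a block it was 50 (13.9% of all genes up), with RNA integrity as a covariate 6 (4.7% of all genes), with both RNA integrity and the block 23 (7.53% of all genes), and without scaling 2 (3.23% of all genes). Those 2 were RPL22L1 and RPS24, with a members' median of 0.17 and -0.35 over all genes. The count fell to 3 without animal 8, 6 without animal 12, 7 without animal 3, 9 without animal 14, 13 without animal 2 and 14 without animal 1. In the same order 587, 828, 909, 917, 1046 and 1202 of all 18753 genes were called up, in place of 1572. The members' median in those fits ran from 0.48 to 0.54. RPS24 was the single member called in all 27 fits. Against the common trend, 2 members lay above (RPS24 at 0.76 and RPL31 at 0.45) and 11 below, beside 0.981% and 55.5% of all genes. Those 13 became 0 without animal 8, 2 without animal 3, 12 or 15, 3 without animal 1 or 14, 8 without animal 5, 24 without animal 4 and 22 without animal 9. Among the furthest below were RPS15 (-0.57), RPL7L1 (-0.50), RPL29 (-0.46) and RPL22 (-0.41). Against the gene-centred trend 5 members lay above and 8 below, with 2 and 8 of them shared, and RPL7L1 (adjusted p = 0.0677) and RPL29 (adjusted p = 0.064) did not pass there. With the animal as a block the 13 became 32 (10 above and 22 below), with RNA integrity as a covariate 0, and with RNA integrity and the block 17. The ratios RPL22L1/RPL22 (0.97 ± 0.34, adjusted p = 0.0492), RPL7L1/RPL7 (-0.74 ± 0.25, adjusted p = 0.0451) and RPL36AL/RPL36A (0.74 ± 0.20, adjusted p = 0.0143) passed, the first in 14 of 27 fits, the second in 16 of 27 and the third in 25 of 26, with the exceptions mostly fits that left out 1 animal.

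Of the 20 genes listed for Diamond-Blackfan anaemia, 17 were tested here and 11 of these rose by day 14 against day 0 (median 0.59), beside 38 of all 71 members and 18.8% of all genes. None of the 17 fell, and 0 were called on day 3. With RNA integrity as a covariate 2 of the 17 were called, RPS24 and RPL31, beside 11.8% of all genes, with a list median of 0.47. Without scaling the same 2 were called, beside 7.79% of all genes, with a list median of 0.16. The 11 became 6 without animal 8, 12 or 14, 7 without animal 1, 9 or 15, and 7 with no filter on low values. The lowest adjusted p were those of RPS24, RPL31, RPL11 (0.91 ± 0.26, adjusted p = 0.00533) and RPS20 (0.91 ± 0.26, adjusted p = 0.006). RPS19, the gene first tied to the disease, had a log2 fold change of 0.19 ± 0.17 (adjusted p = 0.4).

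Ribosomal proteins with other names, and the translation machinery around them, were counted from lists in the same fit. The shares over all genes were 18.8% up and 17.3% down on day 14 against day 0. Of 4 such ribosomal proteins tested, 2 rose by day 14, among them RPL36AL, described above. FAU, the source of RPS30, had 0.38 ± 0.16 (adjusted p = 0.0587, and 0.0334 with the animal as a block). Among elongation factors and nascent chain partners, whose mRNAs mostly carry TOP tracts too, 5 of 9 rose and 0 fell (median 0.56), led by BTF3 (0.94 ± 0.17, adjusted p = 2.63e-05) and TPT1 (1.73 ± 0.33, adjusted p = 7.24e-05). Of 35 initiation factors 15 rose and 1 fell (median 0.23), with EIF5A at 0.83 ± 0.13 (adjusted p = 7.15e-06), EIF2B1 at 0.42 (adjusted p = 1.17e-05) and EIF4G3 at -0.70 (adjusted p = 2.67e-05).

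The genes that build ribosomes and control their production were counted in the same way. Of 37 ribosome assembly factors 7 rose and 0 fell by day 14 (18.9% up, median 0.16; 13 with the animal as a block), beside 18.8% of all genes (23.0% with the block), among them GAR1 (0.52, adjusted p = 0.000157), WDR12 (0.83, adjusted p = 0.000173) and SBDS (0.66, adjusted p = 0.000211). Of 15 genes of RNA polymerase I and its factors, 4 rose (median 0.11), and the 3 with the lowest adjusted p were POLR2F (1.45), POLR2K (0.91) and POLR2E (0.28), subunits shared with the other nuclear polymerases. Of 14 genes that control TOP mRNAs through mTOR, 7 rose and 1 fell (median 0.17). Among them were AKT1S1 (1.07, adjusted p = 7.31e-05), RPS6KB2 (0.45, adjusted p = 8.91e-05) and RHEB (0.75, adjusted p = 0.00021). These counts do not give the direction of mTOR activity, which was not tested. Of 12 genes of ribosome rescue and removal 2 rose and 1 fell, and the largest of these was UBE2O (2.57 ± 0.41, adjusted p = 7.67e-06), a ubiquitin ligase that clears ribosomal proteins in maturing reticulocytes. UBE2O was also up on day 3 (2.04 ± 0.41, adjusted p = 0.00143).

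Mitochondrial ribosomal proteins, which serve the ribosome of the organelle, rose by day 14 in 37 of 71 tested genes with 0 falls, against 38 of 71 cytosolic ones and 18.8% of all genes. Their median change was 0.27, and 2 of them had a fitted rise of at least 2-fold against 9 of the cytosolic ones. MRPS36 (1.81 ± 0.29, adjusted p = 7.61e-06) and MRPL27 (0.67 ± 0.12, adjusted p = 2.57e-05) are examples. From day 3 to day 14, 15 of 71 rose (median 0.22; 25 with the animal as a block), beside 8.38% of all genes (13.9% with the block). The difference between both kinds of ribosome was not tested.

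Markers of blood cell types moved over the same days, and their part in the ribosomal protein changes was not tested. The summed FPKM of 12 reticulocyte markers was 824 to 23700 on day 0 (median 6794), 5827 to 34280 on day 3 (median 17160) and 11720 to 41970 on day 14 (median 32430), and 8 of the 12 rose by day 3 and all 12 by day 14, beside 6.01% and 18.8% of all genes. On day 3, 14 of 15 animals were above their day 0 sum of these markers. By day 3 platelet markers rose in 11 of 11, and NK cell and monocyte markers each in 3 of 8. Neutrophil markers fell in 5 of 12 and T cell markers in 1 of 12, and 0 of 9 B cell markers were called. The shares of all genes on day 3 were 6.01% up and 6.19% down. The sum of 12 neutrophil markers was 1753 to 34780 on day 0 (median 4496) and 536 to 4107 on day 14 (median 1553), and 11 of 12 fell by day 14. NK cell markers rose in 5 of 8 (sum 131 to 657 on day 0, 173 to 1455 on day 14) and platelet markers in 4 of 11 (307 to 4424 and 434 to 2333). B cell markers fell in 2 of 9 (57.4 to 853 and 86.2 to 443), T cell markers rose in 1 and fell in 1 of 12 (368 to 1309 and 348 to 1178), and monocyte markers rose in 1 and fell in 2 of 8 (1026 to 6960 and 560 to 2284), with falls in these 3 lists beside 17.3% of all genes called down. With the animal as a block 8 of 11 platelet markers rose, and 4 of 12 T cell markers rose and 2 fell. In that fit 23.0% of all genes were called up, and 3937 of 18753 were called down. No marker of any list was at 0 in all libraries of a day.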

How the data were processed

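RNA was taken from whole blood in PAXgene tubes, and libraries were made with the TruSeq Stranded kit after ribosomal RNA and globin depletion and read from both ends on an Illumina sequencer. The authors aligned reads with STAR, counted fragments per gene with HTSeq and deposited FPKM values per gene and library (base calls with bcl2fastq 2.17). How HTSeq treated reads with several matches was not given in the sources used here. The FPKM steps gave back whole fragments within 0.01 for 99.39% of values, and so the depth of each library.

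Samples were grouped by the day in their labels. FPKM were divided by TMM factors (30% of M and 5% of A trimmed), and log2(FPKM + 0.1) was fitted with limma 3.58.1 in R 4.3.3, with 1 mean per day over 45 libraries and Benjamini-Hochberg adjustment over 18753 genes with more than 0.5 CPM in at least 3 libraries (6.61 fragments in the smallest library, 15.7 in the largest). Fold changes are on this log2 scale. Paralog ratios and the gene-centred trend were added to the table of all genes as further lines. A count model was not used. Tables and figures were made with Python 3.11.15, and the fit was tested on simulated data.

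The members and lists were chosen with earlier results of these data known. Named genes were, per comparison, the 5 largest called rises and falls, the 5 furthest on either side of the trend, the 3 smallest changes not called, the 5 highest and 5 lowest by mean FPKM, RPSA, the P stalk, both genes of each pair, the 4 lowest adjusted p of the Diamond-Blackfan list and up to 3 per other list. Members named outside this rule (among them RPL24, RPL30, RPS18, RPS19, RPS29, the loosest and tightest in correlation) were chosen after their values were seen. Animals pair the days by the labels. Deviations of libraries from their day's mean had a mean r of 0.328 within an animal (45 pairs) and -0.0231 between animals across days. The alternatives were other pseudocounts, scalings and filters, animal as a block, the RNA integrity number as covariate, array weights and leaving out each animal, and TMM factors from all genes and the gene-centred trend were chosen after seeing the data. Sequences were not analysed here. Some members and list genes stay in the counts and medians and are not reported here by name or drawn.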

Additional observations from a re-analysis of the deposited data

How the results depend on the processing

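No fit called a ribosomal protein gene on day 3 against day 0, and the medians of the members kept their sign on day 14 in all settings. On day 14 against day 0 the count of 38 became 7 without scaling and 11 with RNA integrity as a covariate, with or without the replicate block, and 22 to 42 when each animal was left out. From day 3 to day 14 the count of 26 became 2 without scaling, 14 with no filter, 6 with RNA integrity, 23 with RNA integrity and block, 45 with array weights, 50 with the replicate block and 3 to 32 when each animal was left out. The animal block also moved counts of subunits and gene lists, given beside them in the text above, and genes called up on day 3 among all tested (1127 to 1898). Without scaling 3 members called on day 14 against day 0 turned: RPL32 (-0.078, adjusted p = 0.671), RPLP2 (-0.064, adjusted p = 0.748) and RPS28 (-0.041, adjusted p = 0.816).

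Away from the common trend, the count on day 3 was 1 with array weights and 1 with the gene-centred trend. The count of 27 on day 14 against day 0 was 7 with RNA integrity, 11 with RNA integrity and block, 46 with array weights and 17 to 31 with an animal left out, lowest without animal 14. The count of 13 on day 14 against day 3 was 20 at a mean of at least 5 CPM, 32 with the replicate block, 0 with RNA integrity, 17 with RNA integrity and block, 37 with array weights and 0 to 24 with an animal left out. The ratio RPL7L1/RPL7 from day 3 to day 14 missed the threshold with no filter (-0.74, adjusted p = 0.0771) and with RNA integrity (-0.74, adjusted p = 0.084), and RPL22L1/RPL22 with a pseudocount of 0.01 (0.97, adjusted p = 0.0532) and no filter (0.97, adjusted p = 0.0848). With an animal left out these ranged from -0.83 to -0.61 and from 0.87 to 1.04, and RPL36AL/RPL36A from 0.63 to 0.83. At a mean of at least 5 CPM RPL26L1 and RPL36A were not tested, so their ratios have no value there. The cause of these shifts was not tested. Every member had at least 18 fragments in each library.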
